A study of Mus musculus with 11 samples.

Results

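Antibody RNA in the distal colon was followed through 166 genes: 151 variable (V) segments of the immunoglobulin loci, 10 constant-region genes, 4 genes of plasma cells and antibody transport (Jchain, Mzb1, Tnfrsf17 and Pigr), and Ighmbp2. They were chosen by name, as genes whose symbols begin like the heavy-chain (Igh), kappa (Igk) or lambda (Igl) segments, plus the 4 added genes, and were kept where at least 1 mouse had 1 TPM or more. TPM gives the relative abundance of a transcript after its length and the size of the library are taken into account. Of 22243 genes in the table, 263 had a matching name and 166 were kept. Because measured values chose the members, their presence is a description and not a result. Just outside the threshold lay Ighg2c, with a highest value of 0.913 TPM, and Igkv5-45, with 0.876 TPM, and just inside it lay Ighv2-9, with 1.02 TPM, and Ighv1-43 and Ighv9-4, with 1.10 TPM each. Ighmbp2 matches the name pattern but encodes a helicase and is not an immunoglobulin gene, so it was kept in the count and left out of every sum.

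The mice were 5 Nrg4-/- (KO) and 6 wild-type (WT) animals, and polyadenylated RNA of the full-thickness distal colon was sequenced. Nrg4 encodes the ErbB4 ligand neuregulin-4. KO and WT mice had lived together in 3 cages since the age of 9 weeks, both sexes were used, and tissue was taken at 11 to 12 weeks. The sources used here do not give the design of the knockout allele or the strain background. Cage A held 2 KO mice (KO-1 and KO-8) and 2 WT mice (WT-5 and WT-7). Cage B held 2 KO mice (KO-4 and KO-9) and 2 WT mice (WT-2 and WT-11), and cage C held 1 KO mouse (KO-3) and 2 WT mice (WT-6 and WT-10). Nrg4 was listed at 0 in all 11 mice, so it does not check the genotype labels. The lowest level of the Y-linked gene Eif2s3y among the mice of cage A was 21.5 TPM, and the highest among those of cages B and C was 0.0523 TPM, so a difference of cage A and a difference of sex cannot be told apart. The epithelial markers Epcam and Krt8 were abundant in every mouse, with 832 to 1155 TPM and 2193 to 3860 TPM in KO mice and 843 to 1082 TPM and 2432 to 3549 TPM in WT mice.

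An antibody is built of heavy and light chains. Each B cell lineage joins a single heavy-chain V segment and a single light-chain V segment to its constant regions. Different lineages can use the same segment, so the segments in use do not tell which lineages are present. In the gut wall, plasma cells of the lamina propria secrete mostly IgA, whose subunits are held together by the joining chain (Jchain), and the polymeric immunoglobulin receptor of the epithelium (Pigr) carries it into the lumen. In bulk tissue, fewer cells of a type and less RNA per cell cannot be told apart.

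The V segments on which the results turn are shown by the last 300 bases of their coding sequence, which hold most of the mature V region, with the coordinates of the whole segment (GENCODE M21, GRCm38, the build named mm10). Capitals mark bases covered by at least 1 stretch of 31 bases that occurs in the transcripts of no other gene. A base in capitals can also lie in stretches shared with other genes, so a read over it need not belong to the segment alone. Igkv10-96 (chr6:68631963-68632442, minus strand, 2 exons) was the most abundant V segment of a single mouse, and Igkv10-94 (chr6:68704508-68704978, minus strand) is the related segment that shares most with it. Igkv1-110 (chr6:68270485-68271267, plus strand) was used by every mouse. Igkv8-24 (chr6:70216858-70217421, minus strand) and Ighv1-75 (chr12:115833950-115834418, minus strand) were each concentrated in a single mouse, and Ighv1-26 (chr12:114788372-114788805, minus strand) was the heavy-chain segment of highest mean level.
Igkv10-96: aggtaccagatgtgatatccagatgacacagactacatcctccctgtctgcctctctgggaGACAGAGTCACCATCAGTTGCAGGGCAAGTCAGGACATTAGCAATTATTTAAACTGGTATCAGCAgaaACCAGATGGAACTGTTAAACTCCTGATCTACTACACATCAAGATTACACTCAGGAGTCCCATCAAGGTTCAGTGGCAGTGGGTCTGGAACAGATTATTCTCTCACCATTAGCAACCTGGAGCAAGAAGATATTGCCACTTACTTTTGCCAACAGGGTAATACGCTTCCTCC
Igkv10-94: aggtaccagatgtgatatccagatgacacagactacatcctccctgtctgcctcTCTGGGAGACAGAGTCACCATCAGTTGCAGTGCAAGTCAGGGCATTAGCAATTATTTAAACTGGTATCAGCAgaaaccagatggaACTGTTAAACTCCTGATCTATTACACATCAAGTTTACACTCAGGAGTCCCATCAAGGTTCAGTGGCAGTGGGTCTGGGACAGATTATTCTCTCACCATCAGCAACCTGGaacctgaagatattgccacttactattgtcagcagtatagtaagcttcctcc
Igkv1-110: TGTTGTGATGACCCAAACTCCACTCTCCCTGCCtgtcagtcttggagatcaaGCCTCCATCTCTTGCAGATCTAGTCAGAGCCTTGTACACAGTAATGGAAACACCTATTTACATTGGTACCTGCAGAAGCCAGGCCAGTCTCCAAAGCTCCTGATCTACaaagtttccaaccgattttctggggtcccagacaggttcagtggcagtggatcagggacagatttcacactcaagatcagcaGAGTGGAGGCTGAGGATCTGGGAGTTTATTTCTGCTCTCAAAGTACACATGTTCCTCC
Igkv8-24: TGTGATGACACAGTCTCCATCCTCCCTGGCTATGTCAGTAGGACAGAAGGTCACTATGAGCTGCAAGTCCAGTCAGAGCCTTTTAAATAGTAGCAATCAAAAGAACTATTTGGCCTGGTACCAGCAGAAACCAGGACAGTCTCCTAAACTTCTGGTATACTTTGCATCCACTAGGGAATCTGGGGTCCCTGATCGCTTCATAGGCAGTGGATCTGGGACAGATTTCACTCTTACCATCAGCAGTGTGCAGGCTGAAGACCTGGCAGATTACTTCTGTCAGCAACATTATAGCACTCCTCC
Ighv1-26: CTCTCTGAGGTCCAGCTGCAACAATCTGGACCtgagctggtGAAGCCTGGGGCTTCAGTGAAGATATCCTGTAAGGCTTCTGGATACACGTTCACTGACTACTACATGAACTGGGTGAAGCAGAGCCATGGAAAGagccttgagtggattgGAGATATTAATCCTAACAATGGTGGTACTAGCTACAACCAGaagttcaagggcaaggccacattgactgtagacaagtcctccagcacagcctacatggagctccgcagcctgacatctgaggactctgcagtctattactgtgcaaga
Ighv1-75: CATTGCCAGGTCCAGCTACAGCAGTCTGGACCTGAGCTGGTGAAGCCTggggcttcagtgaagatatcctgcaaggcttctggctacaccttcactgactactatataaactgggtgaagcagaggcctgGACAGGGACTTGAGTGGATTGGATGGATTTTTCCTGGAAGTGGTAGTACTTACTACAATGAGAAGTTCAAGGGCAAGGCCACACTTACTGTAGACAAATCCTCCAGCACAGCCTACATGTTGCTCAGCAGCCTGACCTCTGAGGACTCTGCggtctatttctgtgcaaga
Of the bases shown, 78.7% are in capitals for Igkv10-96, 60.3% for Igkv10-94, 66.3% for Igkv1-110, 100% for Igkv8-24, 55.7% for Ighv1-26 and 66.3% for Ighv1-75. Over the whole transcript, the share of unique 31-base stretches was lower, at 52.0% for Igkv10-96, 33.4% for Igkv10-94 and 36.4% for Igkv1-110. It was 88.7% for Igkv8-24, 25.2% for Ighv1-26 and 36.4% for Ighv1-75.

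Related segments share sequence to different degrees, which bears on every value of a single segment. The median share of 31-base stretches unique to a segment was 53.9% over 77 Ighv segments and 45.9% over 72 Igkv segments, and it was below 50% for 34 and 42 of them. Ighv1-62-2 and Ighv1-71 had no unique stretch at all, and their TPM were equal, within 0.1%, in each of the 3 mice in which either was above 0. Igkv13-84 and Igkv13-85 had values equal within 0.1% in 7 of 9 such mice. Ighv1-62-2 and Ighv1-71 cannot be separated by their values. Of the 31-base stretches of Mzb1, 76.2% also occur in a transcript annotated to SPATA24, so the level of Mzb1 is uncertain. Igkc and Jchain share no such stretch with another gene.

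Of the named segments in the table, 77 of 115 Ighv, 72 of 100 Igkv and 2 of 3 Iglv genes reached 1 TPM in a mouse, and 23 Ighv and 16 Igkv genes were listed at 0 in every mouse. All 17 heavy-chain D segments, all 5 Igkj and all 5 Iglj genes were listed at 0 in every mouse. The annotated D segments are 10 to 29 nt long and the J segments 38 to 43 nt, shorter than a read, and nothing is read from these zeros. Iglv2 and the IgE constant gene Ighe were also listed at 0 throughout, and Iglc4 stayed at or below 0.727 TPM.

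The constant regions were led by kappa. Igkc (chr6:70726435-70726966, plus strand, a single exon), the constant region of kappa light chains, had 762, 500, 465, 654 and 1702 TPM in KO-1, KO-3, KO-4, KO-8 and KO-9, against 231 TPM in WT-7, the lowest WT mouse, a median of 924 TPM and 1383 TPM in WT-2, the highest. The groups overlapped, with KO-9 above every WT mouse and WT-6 and WT-7 below every KO mouse. The mean was 817 ± 509 TPM in KO mice and 838 ± 507 TPM in WT mice (SD, n = 5 and 6), a log2 fold change of -0.01 ± 0.47 on the log2(TPM + 0.5) scale, where ± is the standard error of the limma fit (FDR 1.00). Within the same cage, the values of Igkc ranged from 231 to 1164 TPM in cage A, from 465 to 1702 TPM in cage B and from 292 to 685 TPM in cage C.

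Lambda light chains were a smaller part. Iglc1 (chr16:19061618-19062071, minus strand) is a constant region of lambda light chains. It had 61.6, 47.9, 28.2, 143 and 74.9 TPM in KO-1, KO-3, KO-4, KO-8 and KO-9. In WT mice it had 10.4 TPM in WT-6, the lowest, a median of 95.7 TPM and 169 TPM in WT-2. KO-8 was the highest KO mouse for Iglc1 and also for the lambda segment Iglv1, at 117 TPM, and the groups overlapped. Kappa made up 89.4%, 90.3%, 93.5%, 81.4% and 94.4% of the light-chain constant TPM in KO-1, KO-3, KO-4, KO-8 and KO-9, and 76.6% to 95.0% in WT mice with a median of 89.0%. The means were 89.8 ± 5.14% in KO mice and 88.0 ± 6.13% in WT mice (SD, n = 5 and 6), a difference smaller than the spread within either group. The V segments gave a similar division, with a kappa share of 86.7 ± 8.93% in KO mice and 84.5 ± 4.40% in WT mice.

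Among the light chains, the ratio of V-segment to constant TPM varied more for lambda than for kappa. The summed Igkv TPM was 0.263 to 0.461 of the Igkc TPM in KO mice and 0.268 to 0.377 of it in WT mice. The summed Iglv TPM was 0.305 to 0.791 of the lambda constant TPM in KO mice, with KO-8 the highest, and 0.331 to 0.580 of it in WT mice. Iglc3, another lambda constant gene, varied apart from Iglc1: it was 0.472 of Iglc1 in KO-1 and 0.0349 of it in KO-8, against 0.0699 to 0.390 in WT mice. Iglc2 had 10.9 TPM in KO-9, against at most 1.58 TPM in the other KO mice and at most 3.25 TPM in WT mice. Of the 31-base stretches of Iglc3, 59.2% are unique to it, and 25.1% are shared with Iglc2, the gene with which it shares most.

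Jchain and Pigr describe secretion and transport. Jchain (chr5:88519809-88527891, minus strand) had 46.5, 54.4, 59.0, 76.7 and 139 TPM in KO-1, KO-3, KO-4, KO-8 and KO-9, against 16.9 TPM in WT-7, a median of 97.4 TPM and 127 TPM in WT-2. As for Igkc, KO-9 and WT-2 were the highest mice of their groups and WT-7 the lowest mouse of all. The log2 fold change was 0.00 ± 0.46 (limma FDR 1.00). Pigr (chr1:130826684-130852249, plus strand) was the steadiest of the plasma cell and transport genes, with 848, 1113, 1056, 787 and 929 TPM in KO-1, KO-3, KO-4, KO-8 and KO-9, and 786 to 1017 TPM in WT mice. Its log2 fold change was 0.08 ± 0.11 (limma FDR 1.00). Mzb1, a chaperone of the endoplasmic reticulum of marginal zone B and plasma cells, averaged 2.72 ± 1.67 TPM in KO mice and 3.64 ± 1.94 TPM in WT mice, with the limit on its reads given above. Tnfrsf17, the BCMA receptor of plasma cells, was near the floor, with at most 1.52 TPM (KO-9) in KO mice and at most 0.670 TPM (WT-11) in WT mice, and it did not pass the filter for testing.

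**Figure D1:**
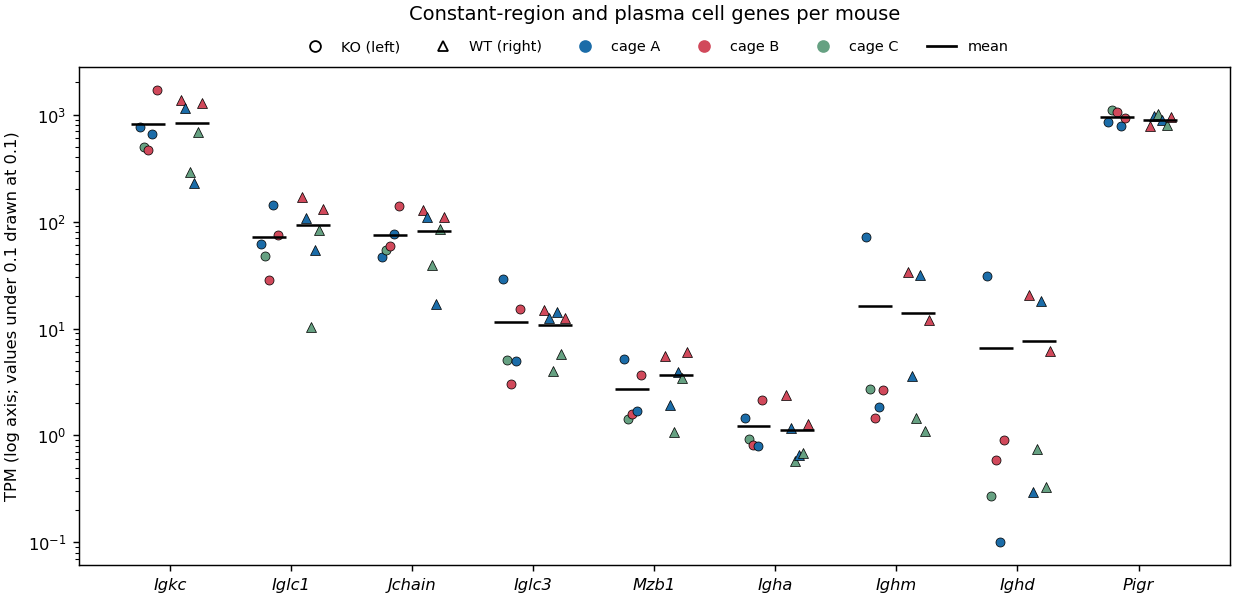
TPM of constant-region and plasma cell genes in each mouse on a log axis, with KO mice as circles on the left and WT mice as triangles on the right of each gene, coloured by cage; the bar is the group mean. The groups overlap for every gene drawn, Pigr varies least, and Ighm and Ighd are high in KO-1 and in 3 WT mice.

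Jchain and Igkc varied together across mice. On log2(TPM + 0.5) over 11 mice, Pearson's r was 0.92 and Spearman's rho 0.90 (two-sided permutation test with 100000 resamples, adjusted p = 0.0001 and 0.0021 over 5 relations of Igkc). Without KO-9 and WT-7, the mice farthest from the median of Igkc, r was 0.88, and after removal of cage means it was 0.93. Igkc also correlated with Iglc1 (r = 0.70, rho = 0.69, permutation adjusted p = 0.0332 and 0.0369; r = 0.89 without those mice) and with Tnfrsf17 (r = 0.68, rho = 0.73, permutation adjusted p = 0.0332 and 0.0329; r = 0.72 without them). For Mzb1 r was 0.50 and rho 0.60 (permutation adjusted p = 0.149 and 0.0701; r = 0.77 without those mice), and for Pigr they were -0.28 and -0.36 (permutation adjusted p = 0.405 and 0.272; r = -0.47 without them). The relations of Igkc were added after those of Igha had been seen. All values of a mouse share its library.

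Heavy-chain constant genes need a limit on what was listed. The deposited table lists only the transcripts that the APPRIS annotation ranks as principal, and for the heavy-chain constant genes these are forms with added downstream exons: Igha-202 has 4 exons and 2540 nt, whereas Igha-201, with 3 exons and 1100 nt, is not among the values analysed here. Heavy-chain genes are known to make secreted and membrane-bound forms by the choice of their last exons, the membrane-bound form using the downstream exons. The Igha values below therefore are those of a single listed transcript and not the total of IgA RNA. Those of Ighm, Ighd and the IgG constant genes are likewise of a single listed transcript each. The summed Ighv TPM was 1.49 to 69.5 times the heavy-chain constant TPM in KO mice and 1.08 to 46.6 times it in WT mice. This ratio thus varied far more than those of the light chains, and the cause was not tested. Igha (chr12:113254830-113260236, minus strand) had 1.46, 0.935, 0.821, 0.788 and 2.12 TPM in KO-1, KO-3, KO-4, KO-8 and KO-9, against 0.572 TPM in WT-6, a median of 0.925 TPM and 2.39 TPM in WT-2. KO-9 and WT-2 were again the highest of their groups. The log2 fold change was 0.06 ± 0.26 (limma FDR 1.00).

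Igha correlated with Igkc over the 11 mice, with r = 0.84 and rho = 0.87 (two-sided permutation test with 100000 resamples, adjusted p = 0.0062 and 0.0049 over 5 relations of Igha). Without KO-9 and WT-2, the mice farthest from the median of Igha, r was 0.77 and the permutation adjusted p = 0.0804, which no longer passed the threshold with 9 mice, and after removal of cage means r was 0.75. The relation of Igha to Jchain (r = 0.66, rho = 0.70, permutation adjusted p = 0.0663 and 0.0515; r = 0.46 without KO-9 and WT-2) did not pass the threshold. Neither did those to Mzb1 (r = 0.61, rho = 0.60, permutation adjusted p = 0.0818 and 0.0928; r = 0.52 without them), Tnfrsf17 (r = 0.54, rho = 0.41, permutation adjusted p = 0.107 and 0.267; r = 0.10 without them) and Pigr (r = -0.25, rho = -0.23, permutation adjusted p = 0.458 and 0.504; r = 0.01 without them).

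Ighm and Ighd, the constant regions of IgM and IgD carried by naive B cells, had a different pattern from Igkc. Ighm (chr12:113418558-113422730, minus strand) had 72.3 TPM in KO-1 and 2.69, 1.45, 1.86 and 2.66 TPM in KO-3, KO-4, KO-8 and KO-9, against 33.4 TPM in WT-2, 31.5 TPM in WT-7, 12.1 TPM in WT-11 and 3.57, 1.47 and 1.11 TPM in WT-5, WT-6 and WT-10. The mice thus fell into 4 high and 7 low ones, with both genotypes on each side. Ighd had 30.9 TPM in KO-1, against 20.5, 18.1 and 6.23 TPM in WT-2, WT-7 and WT-11, and no more than 0.909 TPM in any other mouse. The log2 fold change of Ighm was -0.86 ± 0.99 (limma FDR 1.00), and Ighd did not pass the filter.

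The mice with high Ighm were those with high B cell markers. Cd79a, a signalling chain of the B cell receptor, had 38.9 TPM in KO-1, against 24.5, 20.8 and 9.59 TPM in WT-2, WT-7 and WT-11, and at most 1.82 TPM in the other KO mice and 1.90 TPM in the other WT mice. Cd79b, its partner chain, had 25.1 TPM in KO-1, against 13.1, 11.9 and 6.71 TPM in those WT mice. Ms4a1, which encodes the B cell surface protein CD20, had 9.19 TPM in KO-1, against 4.27, 5.26 and 2.01 TPM, and at most 0.388 TPM elsewhere. Over the whole list of 15 B cell markers the summed TPM ran from 19.6 to 162 in KO mice and from 13.4 to 123 in WT mice. The list also holds Cd74, which other antigen-presenting cells express and which had 67.6 TPM in KO-3. T cell transcripts did not follow in every one of these mice: Trac, the T cell receptor alpha constant gene, had 25.8 TPM in KO-1, against 6.75 TPM in WT-11, 2.72 TPM in WT-2 and 1.12 TPM in WT-7, with 1.76 TPM in KO-3. Whether the amount of lymphoid follicle in a sample has a part in these values was not tested. No pooled correlation is given, since the mice fall into separate clusters.

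**Figure D2:**
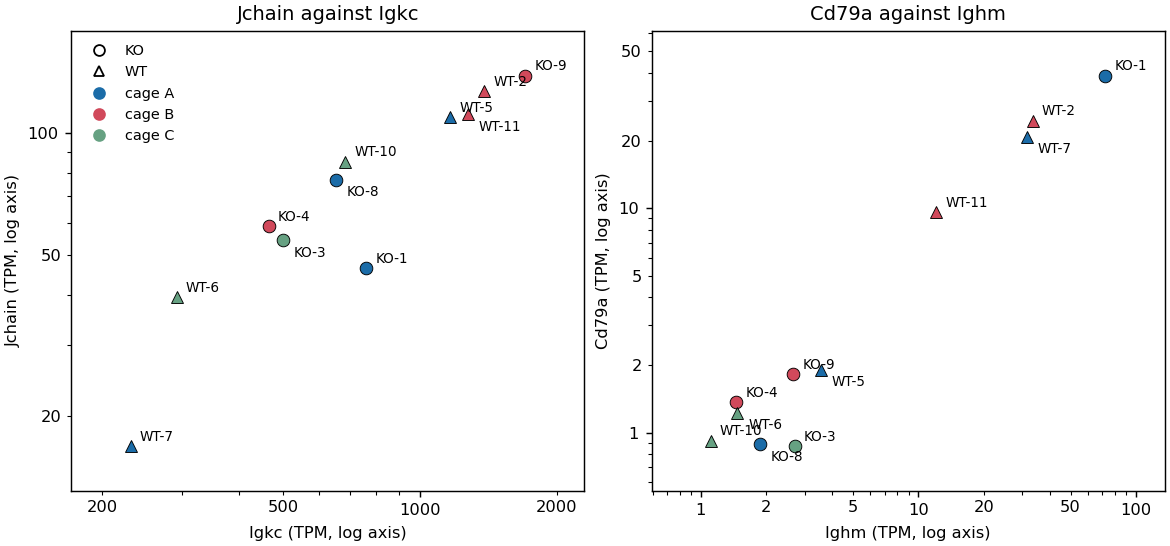
Jchain against Igkc (left) and Cd79a against Ighm (right) in each mouse, TPM on log axes, KO as circles and WT as triangles, coloured by cage. Jchain and Igkc spread along a line, with KO-9 at the top and WT-7 at the bottom, while in the right panel KO-1, WT-2, WT-7 and WT-11 stand apart from the other 7 mice.

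The Igha share of the heavy-chain constant TPM was low in the same 4 mice, whose high Ighm and Ighd are part of the total it is taken of. The level of Igha itself was not low in all of them: KO-1 had 1.46 TPM, the third highest of the 11 mice, against 2.39 TPM in WT-2, the highest, 1.27 TPM in WT-11 and 0.650 TPM in WT-7, the second lowest. Igha was 1.27% of it in KO-1 and 21.7%, 28.7%, 28.7% and 36.6% in KO-3, KO-4, KO-8 and KO-9, against 4.13%, 1.24% and 6.28% in WT-2, WT-7 and WT-11 and 22.7%, 19.4% and 31.4% in WT-5, WT-6 and WT-10. The mean share was 23.4 ± 13.4% in KO mice and 14.2 ± 12.1% in WT mice (SD, n = 5 and 6), a difference of 9.19 percentage points that lay within the spread of either group. It was 14.7 points without KO-1 and 5.88 points without KO-9, and the difference of the medians was 15.8 points. All these shares are of the listed transcripts alone, without the shorter forms such as Igha-201 and Ighm-201. They do not give the share of IgA in the antibody RNA of the tissue. The IgG constant genes were also highest in KO-1. Ighg2b had 6.46 TPM in KO-1, against at most 0.256 TPM in the other KO mice and at most 0.827 TPM in WT mice. Ighg1 and Ighg3 had 1.87 and 2.15 TPM in KO-1, against at most 0.166 TPM and listed values of 0 in the other KO mice, and at most 1.17 and 0.153 TPM in WT mice.

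Between genotypes, no member of the family was called. Of the 166 members, 89 passed the filter of at least 1 TPM in at least 5 mice (31 Ighv, 46 Igkv and 2 Iglv segments, 2 heavy and 4 light constant genes, 3 of the added genes and Ighmbp2), and 77 did not. With limma fitted on all 10756 genes, cage as a term, and a threshold of 0.05 on the Benjamini-Hochberg false discovery rate (FDR), the genotype test called 0 of the 89, against 0.0372% of all genes tested (4 genes). At an unadjusted p below 0.05 there were 5 of the 89 (5.62%), against 333 (3.10%) of all genes. Of the 5 members, 2 were higher and 3 lower in KO mice. Of the 333 genes, 114 were higher and 219 lower, which is 1.06% and 2.04% of all genes tested. Of the 89, 40 were higher and 49 lower in KO mice, and their median log2 fold change was -0.04, against -0.01 over all genes. Their median standard error was 0.64 on the log2 scale, against 0.16 over all genes, so that only large differences of a member could have passed. In the authors' deposited table, 40 members had a p-value, of which 0 were below 0.05, and the smallest was 0.0759, for Igkv6-17. The like share over all transcripts of that table is not given here, so nothing is read from this count.

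The 5 members with the smallest p were kappa and heavy-chain V segments. Igkv5-48 had 19.2, 3.57, 4.79, 11.1 and 9.07 TPM in KO-1, KO-3, KO-4, KO-8 and KO-9, against 1.98 TPM in WT-5, a median of 3.31 TPM and 4.66 TPM in WT-2. Of the KO mice, 4 were above every WT mouse and KO-3 lay inside the WT range. The log2 fold change was 1.18 ± 0.36 (limma unadjusted p = 0.00836, FDR 1.00). Igkv6-17 had 7.01, 8.89, 4.81, 10.7 and 14.4 TPM in those KO mice, against 1.25 TPM in WT-7, a median of 2.75 TPM and 11.5 TPM in WT-11, and a log2 fold change of 1.21 ± 0.45. Here WT-11 and WT-5 lay inside the KO range. Ighv5-16 was at 0 in KO-3, KO-4 and KO-9 and had 1.39 and 1.64 TPM in KO-1 and KO-8, against 0 in WT-6 and WT-10 and 2.53 to 18.2 TPM in the other WT mice, and its log2 fold change was -1.89 ± 0.66. Igkv4-72 had a log2 fold change of -1.42 ± 0.57 and Igkv4-61 one of -1.16 ± 0.48. All of these had a limma FDR of 1.00.

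Summed over the family, the genotypes had close means with a wide spread. The constant genes together had 968, 558, 500.3, 806 and 1809 TPM in KO-1, KO-3, KO-4, KO-8 and KO-9, against 311 TPM in WT-6, a median of 1036 TPM and 1626 TPM in WT-2. All KO values but that of KO-9 lay within the WT range, and KO-9 lay above it. The means were 928 ± 527 TPM in KO mice and 967 ± 567 TPM in WT mice, and those of all V segments 477 ± 254 TPM in KO mice and 489 ± 313 TPM in WT mice (SD, n = 5 and 6).

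Segment use showed a core shared by most mice and a long list of segments used by few. At 1 TPM or more, 3 Ighv segments (Ighv1-26, Ighv9-3 and Ighv1-53) and 7 Igkv segments (Igkv10-96, Igkv1-110, Igkv1-117, Igkv6-23, Igkv12-44, Igkv6-17 and Igkv5-48) were present in all 11 mice, and 11 Ighv and 20 Igkv segments in at least 9. At the other end, 14 Ighv and 8 Igkv segments reached 1 TPM in a single mouse. Segments present in at least 9 mice carried on average 46.7% of the Ighv TPM of a mouse (29.3% to 55.3%) and 66.3% of the Igkv TPM (57.6% to 77.6%). Both of these measures of sharing were lower for the heavy chain than for kappa, which is a description of these libraries. The summed level was lower too, with a mean Ighv TPM of 142 in KO and 157 in WT mice. For Igkv these means were 289 and 280 TPM. With a fixed threshold of 1 TPM, the part of this level in the sharing was not tested.

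**Figure D3:**
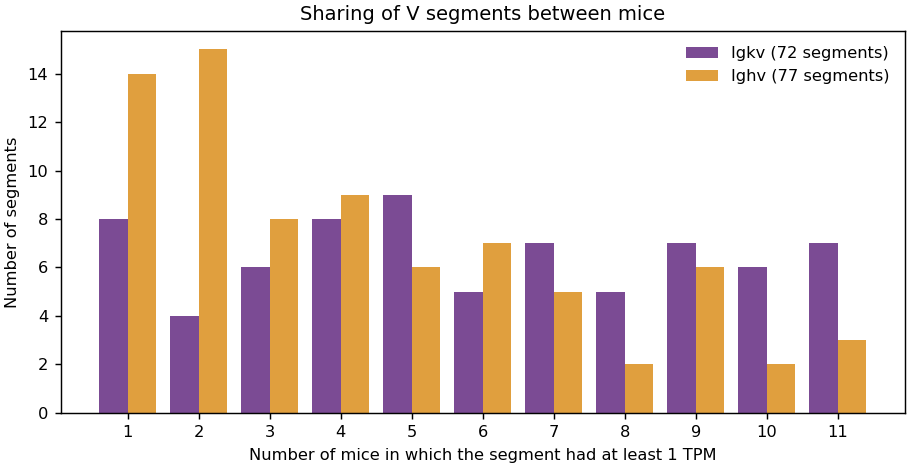
Number of Igkv and Ighv segments (vertical axis) that had at least 1 TPM in exactly the number of mice on the horizontal axis, over 72 Igkv and 77 Ighv segments. Of the Ighv segments 14 reached 1 TPM in a single mouse and 3 in all 11; of the Igkv segments these were 8 and 7.

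The number of segments seen went with the summed level. KO-3 and KO-4 had 18 and 25 Ighv segments at 1 TPM or more and summed Ighv TPM of 61.9 and 67.6, and WT-6, WT-7 and WT-10 had 16, 17 and 18 segments and 49.6, 56.8 and 82.3 TPM. KO-1, KO-8 and KO-9 had 34, 38 and 41 segments at 171, 191 and 216 TPM, and WT-2, WT-5 and WT-11 had 42, 39 and 46 at 245, 239 and 271 TPM. TPM does not give the reads of a library, and the part of depth in these numbers was not tested. An absence from a mouse with a low level therefore does not show that the segment was unused.

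Single segments reached high levels in single mice. Igkv10-96 had 28.7, 15.3, 1.72, 13.8 and 34.9 TPM in KO-1, KO-3, KO-4, KO-8 and KO-9, against 149 TPM in WT-2, 31.9% of the Igkv TPM of that mouse, and 34.0 TPM in WT-11, the next WT mouse. Its relative Igkv10-94, whose sequence is shown above, shares 45.0% of the 31-base stretches of Igkv10-96. In KO-9, Igkv8-24 had 78.5 TPM (14.8% of the Igkv TPM) and Igkv4-91 had 64.3 TPM (12.1%), whereas Igkv8-24 had at most 3.02 TPM in the other KO mice and at most 12.4 TPM in WT mice. The Igkv use of KO-9 as a whole was not narrow, with an effective number of segments (the inverse of the summed squared shares) of 16.2, the median of all mice, whereas WT-2 had the lowest, 7.53. KO-9 held 78.4% of the Igkv8-24 TPM of all mice, and 88.7% of the 31-base stretches of this segment are unique to it.

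Among heavy-chain segments, Ighv1-75 had 13.7 TPM in KO-9 and 0.661 to 2.64 TPM in the other KO mice, against 43.8 TPM in WT-2, 17.9% of its Ighv TPM, and at most 5.41 TPM in the other WT mice. Ighv4-1 had 26.7 TPM in KO-9, against 0 to 0.399 TPM in the other KO mice and at most 5.19 TPM (WT-5) in WT mice. A segment could be kept through a single mouse, so the kept segments include some whose TPM lies mostly in 1 mouse by the way they were chosen. Among those at 1 TPM or more in at least 2 mice, 21 of 63 Ighv and 9 of 64 Igkv segments had more than 50% of their summed TPM in a single mouse.

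Other segments were used widely. Igkv1-110 had 35.5, 12.9, 17.4, 34.6 and 42.2 TPM in KO-1, KO-3, KO-4, KO-8 and KO-9, against 4.98 TPM in WT-7, a median of 34.9 TPM and 49.3 TPM in WT-2. As a share of the Igkv TPM of each mouse it took 7.94% to 12.4% in KO mice and 5.71% to 19.1% in WT mice, and the highest mouse held 15.3% of its summed TPM, the least uneven of the 72 Igkv segments. Of its 31-base stretches, 63.1% are shared with Igkv1-117, which was also present in every mouse. Ighv1-26 had 12.2, 3.19, 2.58, 22.6 and 11.4 TPM in KO-1, KO-3, KO-4, KO-8 and KO-9, against 4.67 TPM in WT-6, a median of 12.5 TPM and 29.8 TPM in WT-5. It was the most used heavy-chain segment of KO-8 and WT-7, with 11.8% and 20.6% of their Ighv TPM.

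**Figure D4:**
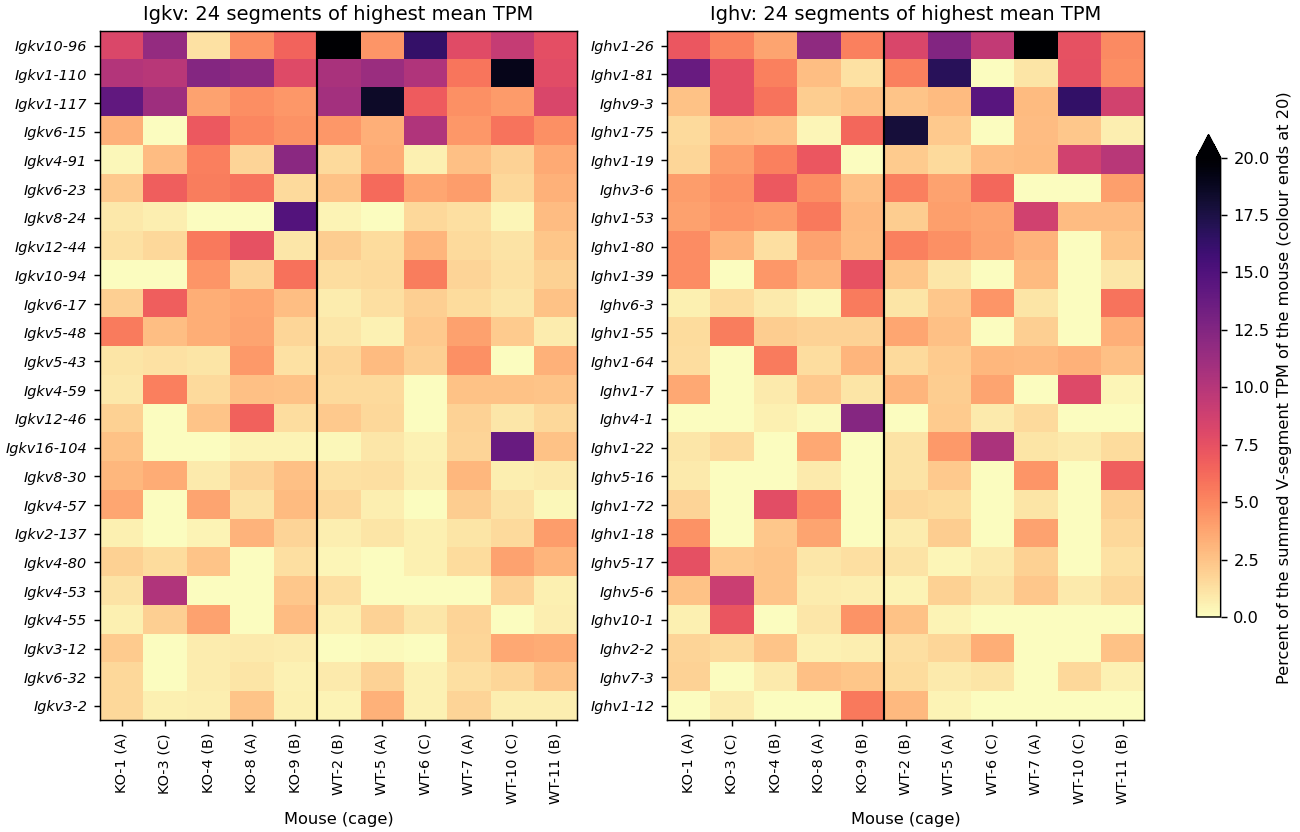
Percent of the summed Igkv TPM (left) and Ighv TPM (right) of each mouse taken by the 24 segments of highest mean TPM, KO mice left of the black line and WT mice right of it, with the cage in brackets; the colour scale ends at 20%. Igkv1-110 is present along its whole row, while single dark cells mark Igkv8-24 in KO-9 (14.8%), Igkv10-96 in WT-2 (31.9%) and Ighv1-75 in WT-2 (17.9%).

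The most used segment differed from mouse to mouse. For Ighv it was Ighv1-81 in KO-1 (13.8%), Ighv1-61 in KO-3 (10.7%), Ighv2-6 in KO-4 (9.23%), Ighv1-26 in KO-8 and Ighv4-1 in KO-9 (12.3%). In WT mice it was Ighv1-75 in WT-2, Ighv1-81 in WT-5 (16.8%), Ighv9-3 in WT-6 (14.6%) and WT-10 (16.4%), Ighv1-26 in WT-7 and Ighv1-19 in WT-11 (9.88%). For Igkv, only Igkv10-96, Igkv1-110, Igkv1-117 and Igkv8-24 led in any mouse, each of the first 3 in both genotypes. The effective number of segments was 20.4, 17.0, 22.4, 23.7 and 21.5 for Ighv in KO-1, KO-3, KO-4, KO-8 and KO-9, against 12.2 to 23.3 in WT mice with a median of 15.8. KO mice averaged 21.0 ± 2.53 and WT mice 16.5 ± 3.72 (SD, n = 5 and 6), with WT-2 and WT-11 inside the KO range and the other 4 WT mice below it. For Igkv the effective number was 18.6 ± 2.82 in KO mice and 17.8 ± 8.66 in WT mice, with 7.53 in WT-2 and 30.0 in WT-7.

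Families of segments had mean shares that differed between genotypes by less than the SD within at least 1 of them. The Ighv1 family, with 40 kept segments, took 60.4 ± 7.02% of the Ighv TPM in KO mice and 59.7 ± 8.65% in WT mice. Of the Igkv TPM, the Igkv4 family (20 segments) took 20.7 ± 7.02% in KO mice and 15.8 ± 5.01% in WT mice, and the Igkv1 family (6 segments) 19.3 ± 5.03% in KO mice and 23.4 ± 5.45% in WT mice. Along the kappa locus, the 24 segments farthest from Igkc took 36.3% to 45.4% of the Igkv TPM in KO mice and 43.8% to 64.2% in WT mice, so that KO-1 and KO-9 lay inside the WT range and the other 3 KO mice below it. The 24 nearest segments took 26.8% to 33.6% in KO mice and 14.01% to 29.8% in WT mice. The split into position classes was made with the values known and was not tested.

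Sharing by genotype is given as a description, since no like count over all genes is set beside it. The 14 Ighv and 8 Igkv segments that reached 1 TPM in a single mouse were kept through that mouse alone. By the rule that kept them, they fall in a single genotype. Of the Ighv segments, 57 reached 1 TPM in both genotypes, 9 in KO mice alone and 11 in WT mice alone, and of the Igkv segments these numbers were 64, 6 and 2. Most of the segments seen in a single genotype were seen in a single mouse: 3 Ighv segments were present in at least 2 KO mice and no WT mouse (Ighv1-84, Ighv1-59 and Ighv1-5), and 3 in at least 2 WT mice and no KO mouse (Ighv13-2, Ighv2-9-1 and Ighv9-2), with 0 such Igkv segments in either direction. Ighv1-84 reached 1 TPM in 3 KO mice, with a highest value of 10.5 TPM, and 42.7% of its 31-base stretches are shared with Ighv1-75. These segments were named after their values were seen.

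Cage was compared in the same fit. The F test on cage called 0 of the 89 members, against 0.00% of all genes tested, and 19 (21.3%) had an unadjusted p below 0.05, against 12.1% of all genes. The smallest FDR of a member was 0.190 (limma), for Ighv1-39. This segment averaged 4.52 ± 3.13 TPM in cage A, 6.84 ± 6.25 TPM in cage B and was listed at 0 in all 3 mice of cage C (SD, n = 4 and 4). Ighv1-18 averaged 5.58 ± 2.58 TPM in cage A and 1.94 ± 1.80 TPM in cage B and was at most 0.0118 TPM in cage C, and Iglv3 averaged 2.0 ± 0.884 TPM and 0.887 ± 0.786 TPM and was at 0 in cage C. Ighv1-53 had 8.01 ± 2.61, 5.46 ± 2.02 and 2.29 ± 0.430 TPM, and Igkv12-46 had 8.45 ± 7.48, 7.16 ± 2.92 and 0.590 ± 1.02 TPM, in cages A, B and C. All 5 were lowest in cage C, whose mice also had low summed levels: the Ighv sum was 164 ± 77.1 TPM in cage A, 199.9 ± 91.0 TPM in cage B and 64.6 ± 16.5 TPM in cage C (SD, n = 4, 4 and 3). The part of the summed level in these differences was not tested.

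Segment use was then compared between pairs of mice by the Bray-Curtis dissimilarity of their shares, which is 0 for identical use and 1 where no segment is shared. For Ighv the median was 0.575 over 40 pairs of different cages and 0.538 over 15 pairs of the same cage, and 0.554 over 30 pairs of different genotypes and 0.570 over 25 pairs of the same genotype. For Igkv the medians were 0.477 and 0.459 by cage and 0.478 and 0.462 by genotype, in the same order. The cages differed in this. For Ighv, pairs of cage mates ranged from 0.349 to 0.555 in cage A, 0.451 to 0.625 in cage B and 0.582 to 0.622 in cage C. For Igkv these ranges were 0.353 to 0.459, 0.410 to 0.517 and 0.490 to 0.556. Every pair of cage C thus lay above the medians of different cages. Pairs share mice, so no test was made. The difference of different minus same cages was 0.0361 for Ighv, 0.0119 without WT-7 and 0.0568 without WT-2, and 0.0181 for Igkv, 0.0043 without WT-5 and 0.0477 without WT-6. For Ighv the closest mouse came from the same cage for 7 of 11 mice and had the same genotype for 2. For Igkv these numbers were 3 and 8. No mouse of cage C had a cage mate as its closest mouse, for Ighv or for Igkv. Of the 55 pairs, 15 share a cage and 25 a genotype. The closest pair of all for Ighv was KO-1 and WT-5 (0.349), both of cage A, and for Igkv it was WT-7 and WT-11 (0.345), of different cages.

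**Figure D5:**
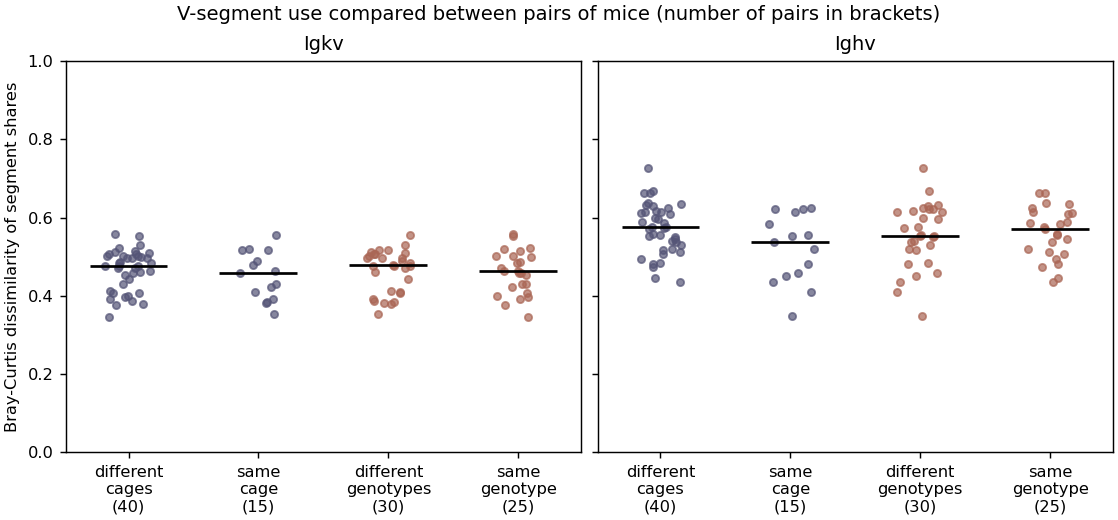
Bray-Curtis dissimilarity of segment shares for every pair of mice, for Igkv (left) and Ighv (right), with pairs split by cage and by genotype, the number of pairs in brackets and the median as a bar. The medians lie between 0.459 and 0.478 for Igkv and between 0.538 and 0.575 for Ighv, and the points of all classes overlap.

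Lists of marker genes were set beside the family. Of their tested genes, 0 were called by limma between genotypes, against 0.0372% of all genes tested. At an unadjusted p below 0.05 there was 1, Rgs13, against 3.10% of all genes, and it is not read as a result about the lists. Of 18 plasma cell markers 10 were tested, 3 higher and 7 lower in KO mice, with a median log2 fold change of -0.03; Txndc5, a disulphide isomerase of the secretory pathway, stood at -0.56 ± 0.26. Several of these markers, such as Xbp1 and Sdc1, are also expressed by colon epithelium. Of 15 B cell markers 4 were tested, split 2 and 2, with Cd79a at -1.13 ± 0.93 and Cd79b at -0.50 ± 0.91. Of 8 germinal centre markers 3 were tested, 2 higher and 1 lower, and Rgs13, also expressed by tuft cells, stood at 0.71 ± 0.24 (limma unadjusted p = 0.0140, FDR 1.00). Of 19 genes of IgA switch, homing and survival 7 were tested, 4 higher and 3 lower; Ccl28, the epithelial chemokine that attracts IgA plasma cells, had 30.1 to 42.7 TPM in KO mice and 27.4 to 44.9 TPM in WT mice. All 5 tested genes of antibody transport and Fc receptors were higher in KO mice without passing, with a median of 0.05. Of 12 lymphoid stroma and T cell genes 4 were tested, 3 higher and 1 lower, with Ccl21a at 0.88 ± 0.57 and Cxcl13 at -0.97 ± 0.74, and the 8 epithelial markers were split 3 and 5. Over all genes tested, 46.8% were higher in KO mice and the median was -0.01.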

How the data were processed

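Full-thickness distal colon RNA of 11 mice was read as single-end 75 nt stranded mRNA libraries, per the labels' protocols. The submitters' processing notes name CASAVA, kallisto, sleuth and the mm10 build, with versions not given in the sources used here. The deposited table gives, per the file headers, TPM per APPRIS principal transcript and mouse, with the authors' p-value and q-value per transcript and a log2 ratio. Of 29213 table lines, 405 repeats of a transcript were dropped, leaving 28808 transcripts, and TPM was summed per gene. The summed TPM of a mouse was 558446 to 770986, mitochondrially encoded genes took 19.0% to 42.9% of it, and 10221 to 10822 genes reached 1 TPM. TPM keeps no sequencing depth, so no counting interval is given.

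Members and gene lists were chosen with earlier results of these data known. Genes at 1 TPM or more in at least 5 mice (10756) were fitted on log2(TPM + 0.5) by genotype and cage with limma 3.58.1 (R 4.3.3) and its mean-variance trend. Adjustment was by Benjamini-Hochberg over all genes tested at an FDR of 0.05. Log2 fold changes are of KO over WT, and this scale understates the change of low genes. Cage was tested by an F test on both cage terms. The test was checked on data simulated with normally distributed values, so the check does not cover segments at 0 in many mice. The labels name no litters, so p-values measure the spread between these mice. Correlations used 100000 resamples (SciPy 1.17.1). Sums, shares and dissimilarities were described without a test. Unique stretches of 31 bases were counted over all transcripts of GENCODE M21, in which all 166 members had a sequence.

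The named genes were every kept member that is no V segment, the V segments of highest mean TPM (6 Ighv, 6 Igkv and the Iglv segments), the leading Ighv and Igkv segment of each mouse, the 5 members of smallest p by genotype and by cage, and the 2 genes of smallest p in each marker list. Others were named after their values were seen. The alternatives were other pseudocounts, filters, scalings, distance measures and summaries, no cage term, and each mouse left out.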

Additional observations from a re-analysis of the deposited data

Results flagged for a closer look

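In each genotype the highest or lowest mouse was compared with the nearest of the others, and 34 of 158 such groups held a mouse far from the rest (Dixon's criterion at the 95% level, on TPM or percent). Chance alone sets a mouse apart in about 1 in 20 groups of normally distributed values, which TPM values need not be. The measures also come from the same libraries. Igkc was entered both with the summed measures and with the named genes, so its flag in KO-9 is repeated in these counts. Of the groups, 54 are of V segments named for a high level, for leading in a mouse or for a small p, which favours a mouse far from the rest. These 54 groups gave 17 of the 34, and the other 104 groups also gave 17, so that the share is not to be read against chance. Most of the mice set apart were KO-1 (10 times), KO-9 (7) and KO-8 (6), against 4 for WT-2, 3 for WT-11, 2 for WT-5, and 1 each for KO-3 and WT-7. KO-4, WT-6 and WT-10 were never set apart.

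KO-1 stood apart from the other KO mice in B cell and heavy-chain constant RNA. It had 115 TPM of heavy-chain constant genes, against 5.81 TPM in the next KO mouse. Its Ighm was 72.3 TPM, its Ighd 30.9 TPM, its Ighg2b 6.46 TPM, its Ighg1 1.87 TPM and its Ighg3 2.15 TPM. Its B cell genes Cd79a and Cd79b had 38.9 and 25.1 TPM, the follicle chemokine gene Cxcl13 had 7.21 TPM, and the segment Ighv1-81 had 23.6 TPM.

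KO-9 stood apart in Igkc (1702 TPM, against 762 TPM in the next KO mouse) and Iglc2 (10.9 TPM). Among KO mice, the segments Igkv8-24 (78.5 TPM), Igkv4-91 (64.3 TPM), Ighv4-1 (26.7 TPM) and Ighv1-75 (13.7 TPM) were also highest there. Ighv1-75 was higher in WT-2, at 43.8 TPM. KO-8 stood apart on the lambda side, with a kappa share of V-segment TPM of 71.0%, a summed Iglv of 118 TPM and an Iglv1 of 117 TPM. In KO-8 Ighv1-19 had 13.7 TPM, Igkv6-23 16.8 TPM and the plasma cell marker Txndc5 21.9 TPM. In KO-3, Ighv1-61 had 6.63 TPM and was at 0 in the other KO mice.

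Among WT mice, WT-2 had 149 TPM of Igkv10-96, 43.8 TPM of Ighv1-75, 3.43 TPM of Ighv1-61, which was at 0 in the other WT mice, and the lowest Krt8, an epithelial keratin gene, at 2432 TPM. WT-11 had 26.7 TPM of Ighv1-19, 18.2 TPM of Ighv5-16 and 12.4 TPM of Igkv8-24. WT-5 had 40.2 TPM of Ighv1-81 and 5.19 TPM of Ighv4-1. WT-7 had the lowest kappa share of light-chain constant TPM, 76.6%.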

How the results depend on the processing

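No member was called between genotypes or between cages under any alternative run: pseudocounts of 0.1 and 1, no filter, a filter of 1 TPM in any mouse, scaling over nuclear genes or by median-of-ratios factors, no cage term (genotype only), and each mouse left out (0 in all 11 fits). Of the 46 named genes tested between genotypes, 21 kept their sign in all settings and 25 changed it in at least 1, with a smallest adjusted p of 0.196 (limma); as none was called, no direction is claimed for them. The correlation of Igha with Igkc was no longer past the threshold without KO-9 and WT-2 (r = 0.773), and ranged from 0.791 to 0.873 with single mice left out. That of Igha with Jchain passed without KO-1 (r = 0.730) and without WT-10 (r = 0.726), over a range of 0.580 to 0.730. With Igkc in place of Igha, which was chosen after seeing the data, the correlations with Jchain (r = 0.923) and Tnfrsf17 (r = 0.681) passed. The cause of these changes was not tested. The difference of summed constant-gene TPM, KO minus WT, was -38.8 TPM and ranged from -259 to 93.0 TPM with single mice left out; that of the kappa share was 1.76 percentage points and ranged from -0.525 to 3.86; both stayed within 1 SD. The Igha share difference stayed positive (5.88 to 14.7 percentage points). The cage dissimilarities, pooled over the cages, also stayed positive under every alternative (for Igkv up to 0.0709 by Spearman distance). This does not hold cage by cage, since the pairs of cage C lay above the medians of different cages. The median dissimilarity of different minus the same genotypes changed sign with the measure, from -0.0161 to 0.0092 for Ighv with segments of 5 TPM or more, and from 0.0159 to -0.0500 for Igkv by Jaccard distance. No paired analysis was possible because each mouse has its own number and the genotypes share none; matched by cage instead, the mean within-cage difference, KO minus WT, was -100.5 TPM for the summed constant genes, 1.85 percentage points for the kappa share and 8.90 for the Igha share. Segment absence is limited by unknown depth and by sequence shared between segments, and heavy-chain constant levels by the listed transcript.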
